A study of Sus scrofa with 24 samples.

Results

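The genes described here are 52 members of the cyclin, cyclin-dependent kinase (CDK), CDK inhibitor, CDC, minichromosome maintenance (MCM), origin recognition (ORC), centromere (CENP), checkpoint (BUB), Aurora, Polo-like (PLK) and kinesin (KIF) families on a pig microarray. They were taken by their symbols alone: every probe whose gene name, or bracketed symbol in its description, begins with one of these family names. Of the cyclins only types A, B, D and E were included. The CKS, POLA, POLD and POLE families were also searched but gave no member. CCNB1 and CDK1 were left out, and the brightest probe was taken for each of the 23 symbols that had several. The members had 84 probes together. A gene counted as measured where its spot stood well above background in 4 or more of the 24 samples. That held for 50 of the 52 genes, among 33724 features tested in all, 5075 of them with a gene symbol. The other members were the CDK inhibitor CDKN2B, well above background in 2 samples, and CDK5R1, the neuronal CDK5 activator, in 0 samples. By role, 17 members were listed in G2 and mitosis, 6 in G1 and S entry and 4 in DNA replication. The list of the constitutive centromere held 1 (CENPM), and 4 were CDK inhibitors, of which 3 were measured. A further 19 share a family name but act mainly outside the division cycle, 18 of them measured, and PLK1S1 was in none of these lists.

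The samples came from a pig model of stenosis in the arteriovenous graft used for haemodialysis, in which a graft is sewn to a vein. At 5 and 14 days after placement, RNA was taken from the venous anastomosis, from the vein downstream of it, and from an external jugular vein that served as control, giving 6 groups of 4 biological replicates. The days count from graft placement for all groups, the control vein included. Strain, sex, age, graft material and any drug are not given in the sources used here, and neither is whether the 3 sites of a replicate number, or both days of a number, came from 1 animal, or whether RNA was pooled. If samples of a group were not from separate animals, the p-values measure only the spread between these samples.

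A cell that divides enters the cycle in G1 under D-type cyclins with CDK4 or CDK6, and copies its DNA in S phase with MCM helicase and CDC45 at origins marked by ORC. It then separates its chromosomes in mitosis with cyclin A2, Aurora and Polo-like kinases, kinesin motors of the spindle, centromere proteins and the BUB1 checkpoint. CDK inhibitors such as CDKN1B (p27) hold resting cells out of the cycle, and smooth muscle cells of a healthy vein wall are mostly at rest. Injury to a vessel is known to bring wall cells into division, and narrowing of the vein at the graft anastomosis is built from such cells and their matrix.

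The arrays measured these genes through probes of 60 bases. For the 6 members with the largest rises at the anastomosis on day 5, the first 30 bases of the probe, 5′ to 3′, identify what was hybridised.
CDC20: caaaagcagcctcatccaccaaggcatccg
CDCA7: gtgtctggggcataattggaccttgaatca
BUB1: ctggcctgctcaagttggaccttgatgttt
CENPF: tcatcttttggatcaactaaaagcccagaa
KIF26B: tgacttgctgtttctaaggaagttgtgttt
CDCA3: ggactgagagctttcatgactttctttttg
Probes of a symbol need not be independent measurements. Among 43 pairs of probes with the same symbol, 3 shared a run of 20 or more bases, those of CDC45, CDCA7L and PLK1S1. Both CDC45 probes hold the same 50 bases, and the first 30 of the shared stretch are printed here in capitals, from base 11 of the first probe and base 1 of the second.
CDC45 (A_72_P035116): GGCGTAGTTCTAGATGTAGGAACAGTGGTT
CDC45 (A_72_P311318): GGCGTAGTTCTAGATGTAGGAACAGTGGTT
The close values of the CDC45 probes are thus values of the same target stretch.

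Values are normalised log2 intensities of the channel that held the sample, so a difference of 1 is a doubling, and a difference understates the change of dim genes. Differences were tested with limma over all 33724 features, and "rose" and "fell" are used for members with a Benjamini-Hochberg adjusted p under 0.05 in that test. Each group had n = 4, and the SE is that of the fit. Between 56.9% and 80.2% of probes were well above background in a sample. Replicates 1 and 2 were read with another version of the scanner software's protocol than replicates 3 and 4. The controls were labelled with Cy3 and both graft sites with Cy5, so in every comparison with the control the dye and the site cannot be told apart. The 5 measured smooth muscle markers and the 5 endothelial markers were well above background in every group. In the control of day 14, replicate 2 stood apart from the other controls. The mean of 5 adipocyte markers was 14.12 there against 7.80 to 9.18 in the other replicates. That of the smooth muscle markers was 13.33 against 16.09 to 16.72. High adipocyte means were also read on day 14 in anastomosis replicate 3 (13.60) and downstream replicates 2 (13.42) and 4 (12.28). The other graft samples of that day had 8.40 to 10.35. In downstream replicate 2 the smooth muscle mean was 13.54, against 14.16 to 15.97 in the other downstream replicates. In the authors' deposited value table, none of the 6 columns of replicate 4 resembled its own scanner file most, while 18 of 18 columns of replicates 1 to 3 did, so replicate 4 is also described by what its absence changes.

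On day 5 most of the G2 and mitosis members, and some of the G1, S entry and replication members, were higher at the anastomosis than in the jugular vein. Of the 50 measured members 20 rose and 5 fell, where 19.4% of all features passed in either direction (9.08% higher and 10.3% lower) and 29.7% of features with a symbol did. At an unadjusted p under 0.05 the share of all features was 31.1% here, 24.8% at the anastomosis on day 14, 25.1% downstream on day 5 and 15% downstream on day 14. In G2 and mitosis 13 of 17 members rose and 0 fell, with a median difference of 1.57 beside a median of 0.00 over all features. Samples did not overlap for 19 members that were higher at the anastomosis and 2 that were lower, which is true of 6.75% and 8.03% of all features. The count of 25 calls was 15 without replicate 4 and 19 to 21 without each of the others, 12 in replicates 3 and 4 alone and 0 in replicates 1 and 2 alone. It was 16 without the replicate block. The median of the G2 and mitosis members was 1.21 in replicates 1 and 2, and 1.84 in replicates 3 and 4.

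**Figure D1:**
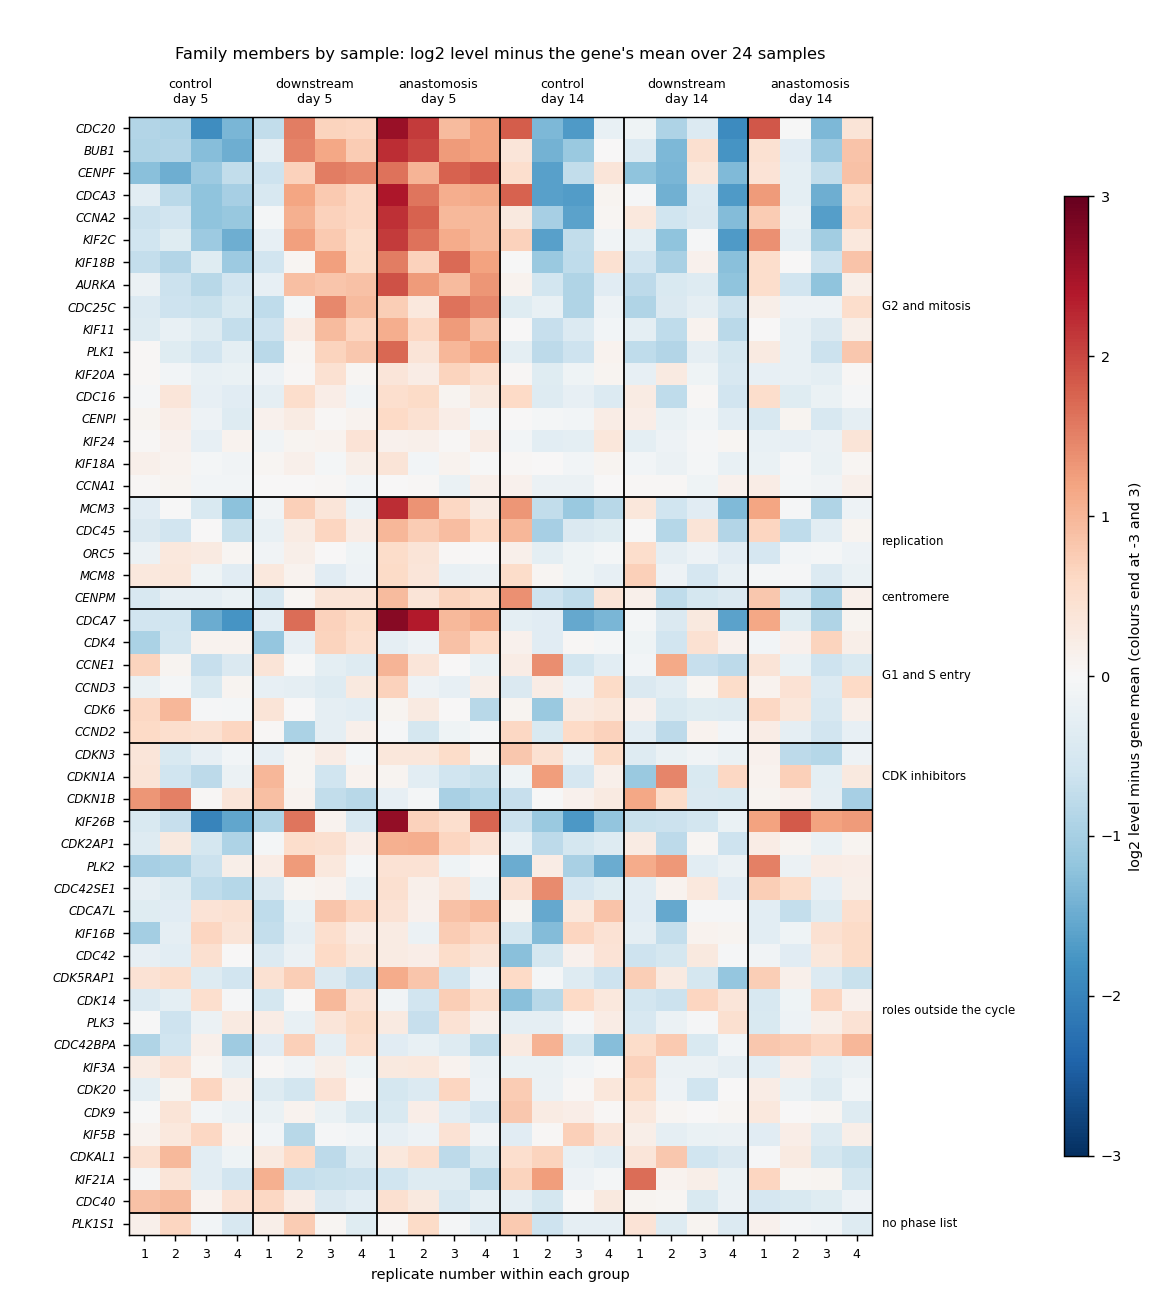
Log2 level of each of the 50 measured members in each of the 24 samples, minus the mean of that gene over all samples, with genes in rows by role and samples in columns by group and replicate number. The 4 anastomosis samples of day 5 are red through the upper G2 and mitosis rows, replicate 1 of the day 5 downstream samples is blue or pale in most of them, and the day 14 samples are mixed.

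The largest difference among the members was that of CDC20, the activator of the anaphase-promoting complex. On day 5 CDC20 read 9.17, 9.12, 8.18 and 8.68 in the controls, 12.64, 12.15, 10.99 and 11.25 at the anastomosis and 9.32, 11.59, 10.71 and 10.70 downstream (replicates 1 to 4 in each case). All 4 anastomosis samples lay above all 4 controls, and CDC20 rose by 2.97 (SE 0.54, adjusted p = 0.00224), or 7.82-fold. BUB1, the kinetochore kinase of the spindle checkpoint, read 8.89, 8.92, 8.53 and 8.33 in the controls, 12.02, 11.80, 11.08 and 11 at the anastomosis and 9.53, 11.28, 10.97 and 10.56 downstream. Again the groups did not overlap, with a rise of 2.81 at the anastomosis (SE 0.51, adjusted p = 0.00216), and the anastomosis replicates 1 and 2 were the highest samples. CENPF, a kinetochore protein made late in the cycle, read 8.16, 7.94, 8.32 and 8.66 in the controls, 11.03, 10.43, 11.18 and 11.27 at the anastomosis and 8.77, 10.10, 10.94 and 10.86 downstream. It rose by 2.71 (SE 0.47, adjusted p = 0.00165), and in all 4 pairs of the same number the difference was 2.50 to 2.88.

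CCNA2, the cyclin of S phase and mitotic entry, read 8.83, 8.90, 8.26 and 8.35 in the controls, 11.66, 11.25, 10.45 and 10.46 at the anastomosis and 9.42, 10.55, 10.18 and 10.10 downstream. All anastomosis samples were above the highest control, and CCNA2 rose by 2.37 (SE 0.39, adjusted p = 0.00129). Its germ-line relative CCNA1, well above background in 1 control and 1 anastomosis sample of day 5, differed by 0.01 (SE 0.08, adjusted p = 0.977). KIF2C, the microtubule-depolymerising kinesin of the centromere, read 9.28, 9.51, 8.79 and 8.41 in the controls, 11.97, 11.51, 10.98 and 10.86 at the anastomosis and 9.63, 11.12, 10.66 and 10.44 downstream. It rose by 2.33 (SE 0.43, adjusted p = 0.00222) with no overlap of anastomosis and control. AURKA, the spindle pole kinase, read 9.98, 9.51, 9.32 and 9.57 in the controls, 12.07, 11.44, 11.10 and 11.47 at the anastomosis and 9.90, 11.05, 10.99 and 11.04 downstream. AURKA rose by 1.93 (SE 0.35, adjusted p = 0.00211), by 1.78 to 2.10 in the 4 pairs of the same number.

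The other G2 and mitosis members that rose at the anastomosis on day 5 covered several steps of mitosis. CDCA3, which takes part in the destruction of the mitotic inhibitor WEE1, rose by 2.40, and the CDK1-activating phosphatase CDC25C by 1.57. Of the kinesins, KIF18B rose by 2.05 and KIF11, which pushes spindle poles apart, by 1.40. KIF20A, needed for the final split of the daughter cells, rose by 0.56 and was well above background in 1 of 4 controls. PLK1, the main Polo-like kinase of mitosis, rose by 1.38 (range over the pairs 0.74 to 1.68), and CDC16, a subunit of the anaphase-promoting complex found in resting cells too, by 0.43. The CDC16 samples overlapped with the controls and its adjusted p of 0.0477 was near the threshold. The members that did not pass were CENPI (0.36), KIF24 (0.13), KIF18A (0.08) and CCNA1, all but CENPI well above background in 1 of the 4 controls. Without replicate 4 PLK1 no longer passed (1.33). KIF20A did not pass without replicate 1, 3 or 4, and CDC16 without any 1 of the 4.

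**Figure D2:**
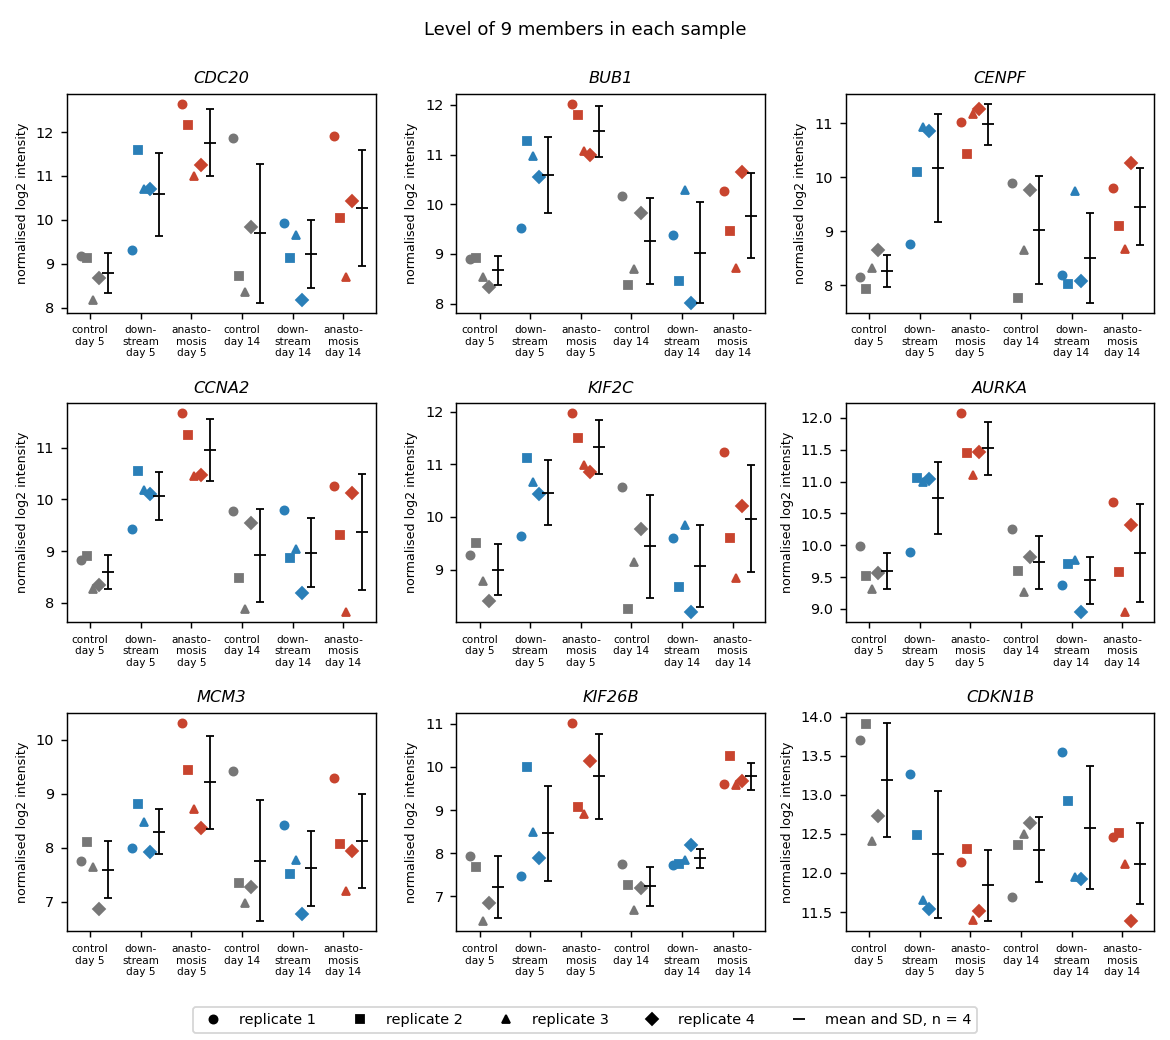
Normalised log2 intensity of 9 members in each sample of the 6 groups, with a symbol shape for each replicate number and the mean with SD (n = 4) beside it; each panel has its own vertical range. CDC20, BUB1, CENPF, CCNA2, KIF2C and AURKA show the anastomosis samples of day 5 above all controls of that day and downstream replicate 1 below its group, while KIF26B is high at the anastomosis on both days and CDKN1B is highest in controls 1 and 2 of day 5.

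Among the genes of G1 and S entry, 2 of 6 rose and 1 fell at the anastomosis on day 5. CDCA7, an E2F and MYC target that works with a chromatin remodeller, read 8.64, 8.61, 7.73 and 7.43 in the controls, 11.94, 11.58, 10.19 and 10.32 at the anastomosis and 8.89, 10.89, 9.90 and 9.78 downstream. The anastomosis samples lay above all controls, a rise of 2.90 (SE 0.46, adjusted p = 0.00108), with replicates 1 and 2 higher than 3 and 4 at every site except downstream replicate 1. A second, dimmer CDCA7 probe rose by 0.56. CDK4, the G1 kinase, read 11.35, 11.74, 12.40 and 12.40 in the controls, 12.02, 12.15, 13.17 and 12.89 at the anastomosis and 11.15, 12.05, 12.98 and 12.80 downstream. The groups overlapped, since replicates 3 and 4 were higher than 1 and 2 at both control and anastomosis, but each anastomosis sample was above its own control and CDK4 rose by 0.59 (SE 0.16, adjusted p = 0.0168). Of its other probes 1 rose by 0.70 and 1 did not pass (0.17). The CDK4 call ended without replicate 3, without replicate 4 and without the replicate block. Its relative CDK6 was at -0.50 (adjusted p = 0.216), and cyclins CCND3 and CCNE1 were at 0.28 and 0.38 (adjusted p = 0.362 and 0.308).

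Cyclin D2 (CCND2) gave opposite answers from its 3 probes. The brightest, A_72_P035456, read 13.93, 13.83, 13.79 and 13.98 in the controls, 13.29, 12.81, 13.19 and 13.28 at the anastomosis and 13.36, 12.38, 13.06 and 13.49 downstream, so that all anastomosis and downstream samples of day 5 lay below all controls. By this probe CCND2 fell by 0.74 at the anastomosis (SE 0.20, adjusted p = 0.0187). Probe A_72_P015411 read 9.30, 9.27, 9.09 and 8.96 in the controls and 10.66, 10.43, 10.01 and 10.18 at the anastomosis on day 5, so its anastomosis samples lay above all controls. In a test of single probes, over 36141 probes, it rose by 1.17 (SE 0.27, adjusted p = 0.00876), while the brightest fell with an adjusted p of 0.0184. The third, A_72_P245637, was at -0.41 (SE 0.16, adjusted p = 0.0809). CCND2 was the 1 symbol of 23 with several probes whose probes were called in opposite directions in this comparison. Which transcript each probe measures was not tested. The direction of CCND2 also depended on the scaling: it was 0.10 with each channel centred on its median, and 0.00 as the mean of the 3 probes. The call also ended without replicate 1, without replicate 4 and without the replicate block.

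**Figure D3:**
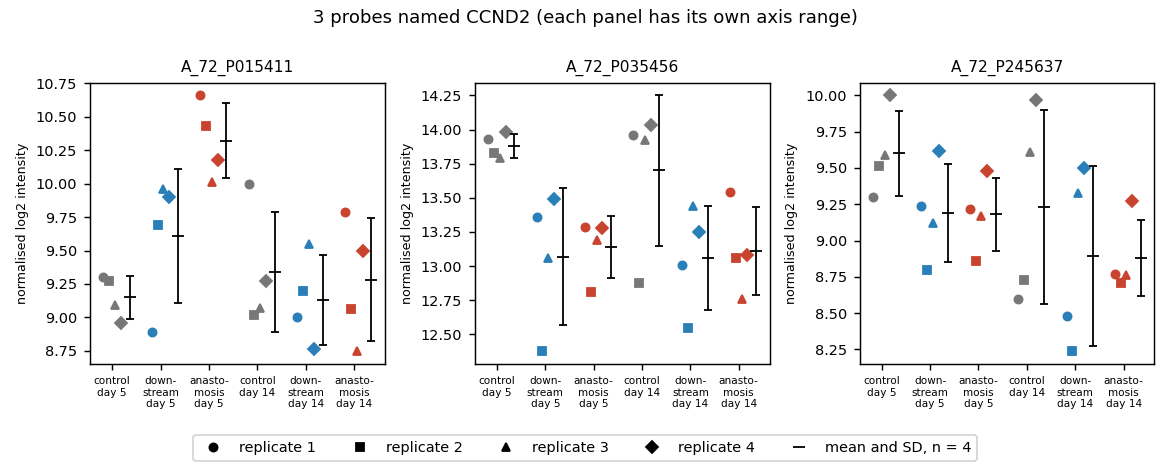
Normalised log2 intensity of the 3 probes named CCND2 in each sample, with the mean and SD (n = 4) of each group; each panel has its own vertical range. On day 5 the anastomosis samples are above all controls in the first panel (A_72_P015411) and below all of them in the second (A_72_P035456).

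Of the 4 replication members, 2 rose at the anastomosis on day 5. MCM3, a subunit of the replicative helicase, read 7.76, 8.10, 7.64 and 6.87 in the controls, 10.31, 9.44, 8.72 and 8.36 at the anastomosis and 8.0, 8.81, 8.47 and 7.93 downstream. The anastomosis samples were above all controls, with a rise of 1.61 (SE 0.31, adjusted p = 0.00318) that was largest in replicate 1 (2.54) and 1.08 to 1.49 in the others. CDC45, which joins the helicase when origins fire, read 10.57, 10.45, 11.03 and 10.35 in the controls, 12.01, 11.77, 11.93 and 11.62 at the anastomosis and 10.79, 11.25, 11.66 and 11.23 downstream. CDC45 rose by 1.24 (SE 0.24, adjusted p = 0.00309), with no overlap. MCM8, a helicase of DNA repair, and ORC5, an origin subunit, were at 0.09 and 0.12 (adjusted p = 0.717 and 0.722). At the constitutive centromere CENPM read 8.20, 8.39, 8.41 and 8.46 in the controls, 9.61, 9.05, 9.34 and 9.25 at the anastomosis and 8.18, 8.72, 9.06 and 9.05 downstream, with no overlap between anastomosis and control and a rise of 0.95 (SE 0.22, adjusted p = 0.00759). The MCM3 and CENPM calls ended without the replicate block, and that of CENPM without replicate 4.

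By their brightest probes, 0 of the 3 measured CDK inhibitors rose at the anastomosis on day 5 and 1 fell. CDKN1B read 13.70, 13.90, 12.41 and 12.73 in the controls, 12.14, 12.31, 11.40 and 11.51 at the anastomosis and 13.27, 12.49, 11.65 and 11.54 downstream. The anastomosis samples lay below all controls, but both groups were higher in replicates 1 and 2 than in 3 and 4. CDKN1B fell by 1.35 (SE 0.32, adjusted p = 0.00994), or by 1.01 to 1.59 in the 4 pairs. The fall was 0.62 and not past the test with median centring, and it did not pass without replicate 2 or without the replicate block either. CDKN1A (p21) read 14.55, 13.56, 13.39 and 13.99 in the controls, 14.25, 13.86, 13.56 and 13.49 at the anastomosis and 15.17, 14.23, 13.57 and 14.28 downstream. These groups overlapped fully, at -0.08 (SE 0.24, adjusted p = 0.877). CDKN3, a phosphatase that acts on CDKs and that dividing cells themselves make, was at 0.44 (SE 0.21, adjusted p = 0.170), but its second probe was higher by 0.67 with an adjusted p of 0.0309 in the test of single probes.

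Of the 18 measured members with roles outside the cycle, 2 rose and 3 fell at the anastomosis on day 5. That is 27.8%, where 19.4% of all features and 29.7% of features with a symbol passed, so this count is near the background. KIF26B, a kinesin relative linked to cell polarity and migration rather than to the spindle, read 7.93, 7.69, 6.42 and 6.84 in the controls, 11.02, 9.08, 8.90 and 10.13 at the anastomosis and 7.48, 10, 8.49 and 7.90 downstream. The anastomosis samples lay above all controls, and KIF26B rose by 2.56 (SE 0.49, adjusted p = 0.00294). Without replicate 4 it was 2.32 and did not pass (adjusted p = 0.0549). CDK2AP1, which binds CDK2 and is part of a chromatin-modifying complex, rose by 1.20 (SE 0.19, adjusted p = 0.00114) with no overlap. The splicing factor CDC40 fell by 0.59 (SE 0.15, adjusted p = 0.0119), the transcription kinase CDK9 by 0.30 and the tRNA-modifying enzyme CDKAL1 by 0.35. All 3 overlapped with the controls. The CDC40 call ended without replicate 3 or 4 and without the replicate block, that of CDKAL1 without replicate 2, 3 or 4, and that of CDK9 without any 1 replicate. CDK9 was instead at 0.63 (adjusted p = 0.00134) and CDKAL1 at 0.10 with median centring, so their direction depended on the scaling. The transport kinesins KIF3A (0.02), KIF5B (-0.30), KIF16B (0.43) and KIF21A (-0.40), the small GTPase CDC42 (0.36) and the stress-induced kinases PLK2 (0.79) and PLK3 (0.19) did not pass. A dimmer CDC42 probe did pass in the test of single probes, at 0.94 (SE 0.20, adjusted p = 0.00475), so the CDC42 probes differ in their call. PLK1S1, listed under no role, was at 0.00 (adjusted p = 0.999), and 1 of its other probes at 0.39 (adjusted p = 0.0463).

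By family name, the calls at the anastomosis on day 5 were spread as 6 rises and 1 fall among 11 CDC genes, 5 rises among 11 kinesins, 2 rises and 2 falls among 8 CDKs and 2 rises among 5 Aurora and Polo-like kinases. The cyclins gave 1 rise and 1 fall among 5, and the centromere genes 2 rises among 3. Of the kinesins, KIF26B, listed outside the cycle, had the largest rise, followed by KIF2C, KIF18B, KIF11 and KIF20A. KIF18A and KIF24, listed under G2 and mitosis, did not pass, and neither did the transport motors KIF3A, KIF5B, KIF16B and KIF21A. Outside the families, 59 further genes of the cycle had been listed by textbook role and 25 of them were measured. Of these, 19 rose and 0 fell, with a median of 1.06, where 9.08% of all features and 17.9% of features with a symbol were higher. This list too was chosen with earlier results of these data known. Examples are the chromosome-condensing enzyme TOP2A (2.95), the nucleotide-making RRM2 (3.29) and the spindle protein DLGAP5 (3.38), while RFC3, RPA1, PRIM1, WEE1 and GMNN were among those that did not pass. CCNB1 and CDK1, which the selection left out, read 12.14 to 12.37 and 11.75 to 12.69 at the anastomosis on day 5, against 8.45 to 8.65 and 8.69 to 9.04 in the controls.

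Cell type markers moved in the same comparison. Of 5 smooth muscle markers 3 fell (median of the list -2.20), of 4 macrophage markers 3 rose (1.39) and of 5 endothelial markers 2 rose (0.55). The mean smooth muscle marker level was 16.01 to 16.71 in the 4 controls and 13.73 to 15.32 at the anastomosis. The mean macrophage marker level was 11.44 to 11.56 in the controls and 12.75 to 13.13 at the anastomosis. T cell (0 of 4), B cell (0 of 2), neutrophil (0 of 1), adipocyte (0 of 5) and fibroblast (0 of 1) markers did not pass, and 3 of the 5 adipocyte markers were well above background in all 4 anastomosis samples. The part of these markers in the rise of the division genes was not tested. In RNA from whole vein segments, fewer cells of a type and less RNA per cell cannot be told apart.

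**Figure D4:**
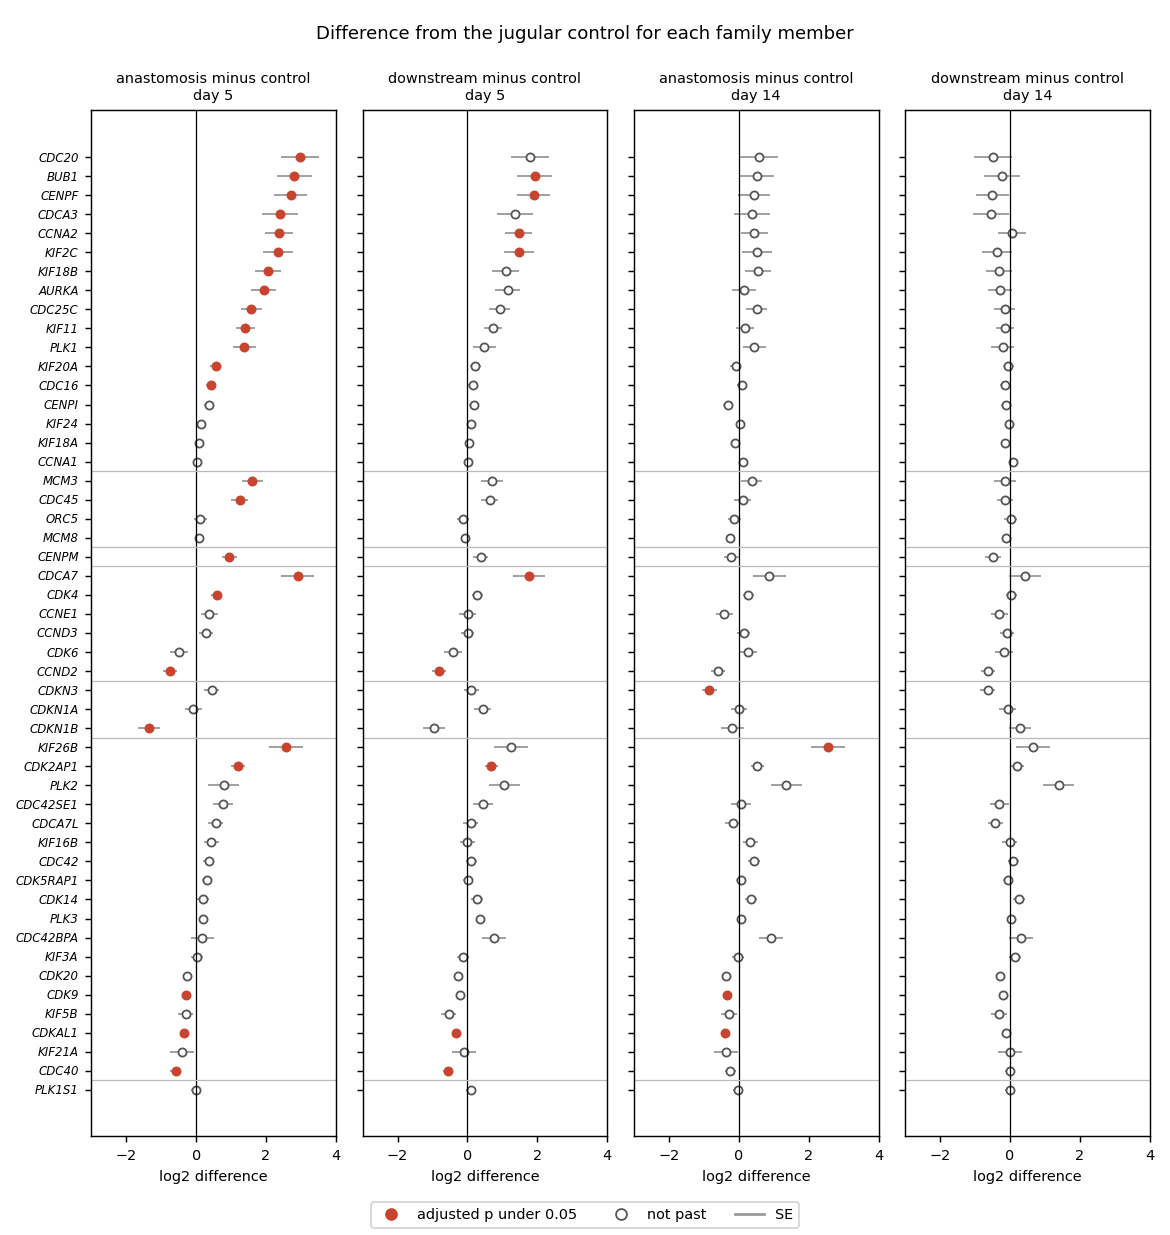
Log2 difference from the jugular control (bars are the SE of the fit) for the 50 measured members in 4 comparisons, ordered by role and by the day 5 anastomosis difference; filled points have an adjusted p under 0.05. The G2 and mitosis block at the top leans to the right on day 5, more so at the anastomosis than downstream, and lies near 0 on day 14, when KIF26B remains at 2.55 at the anastomosis.

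Downstream of the anastomosis the same members were compared with the same control samples, so these differences share them with those above. On day 5, 6 members rose and 3 fell, where 8.13% of all features passed (3.16% higher and 4.98% lower) and, of features with a symbol, 5.79% higher and 6.03% lower. The risers were BUB1 (1.92), CENPF (1.90), CDCA7 (1.76), CCNA2 (1.47), KIF2C (1.47) and CDK2AP1 (0.68). The second, dimmer CDCA7 probe was at 0.10 (adjusted p = 0.778 in the test of single probes). CDC20 had a difference of 1.79 and AURKA of 1.15, with adjusted p of 0.0557 and 0.0557, both just short of the threshold. The members that fell were CCND2 by its brightest probe (-0.81), CDC40 (-0.56) and CDKAL1 (-0.32). Of the other CCND2 probes, A_72_P015411 was at 0.46 and A_72_P245637 at -0.40, neither past the test of single probes. In G2 and mitosis 4 of 17 rose, with a median of 0.93, and samples did not overlap for 6 members higher and 2 lower downstream, against 3.26% and 4.39% of all features. No replication member or CDK inhibitor passed, MCM3 being at 0.71, CDC45 at 0.64 and CDKN1B at -0.95. In the same comparison 2 of 5 smooth muscle markers fell (list median -2.18), 2 of 4 macrophage markers (1.29) and 2 of 5 endothelial markers (0.73) rose, and the neutrophil marker CXCR2 fell by 1.09. The part of these markers was not tested.

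The downstream samples of day 5 were not alike. In the day 5 values given above, downstream replicate 1 read 9.32 for CDC20 where the others read 10.70 to 11.59, and 8.77 for CENPF where the others read 10.10 to 10.94. Replicate 1 was the lowest of the 4 for 14 of the 17 G2 and mitosis members. Against the control of the same number, the median of the 17 was -0.08 in replicate 1, 0.55 in replicate 2, 1.59 in replicate 3 and 1.42 in replicate 4. At the anastomosis the corresponding medians were 1.68, 0.94, 1.78 and 1.90, so there no replicate was near 0. The 9 downstream calls were 17 without replicate 1 and 0 without replicate 2, 3 or 4. They were 0 in replicates 1 and 2 alone, 4 in replicates 3 and 4 alone and 0 without the replicate block. The macrophage marker mean was 11.95 in downstream replicate 1 and 12.83 to 13.18 in the others. The smooth muscle marker mean was 15.34 in downstream replicate 1 and 13.63 to 14.74 in the others. Their part in the difference between replicates was not tested.

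**Figure D5:**
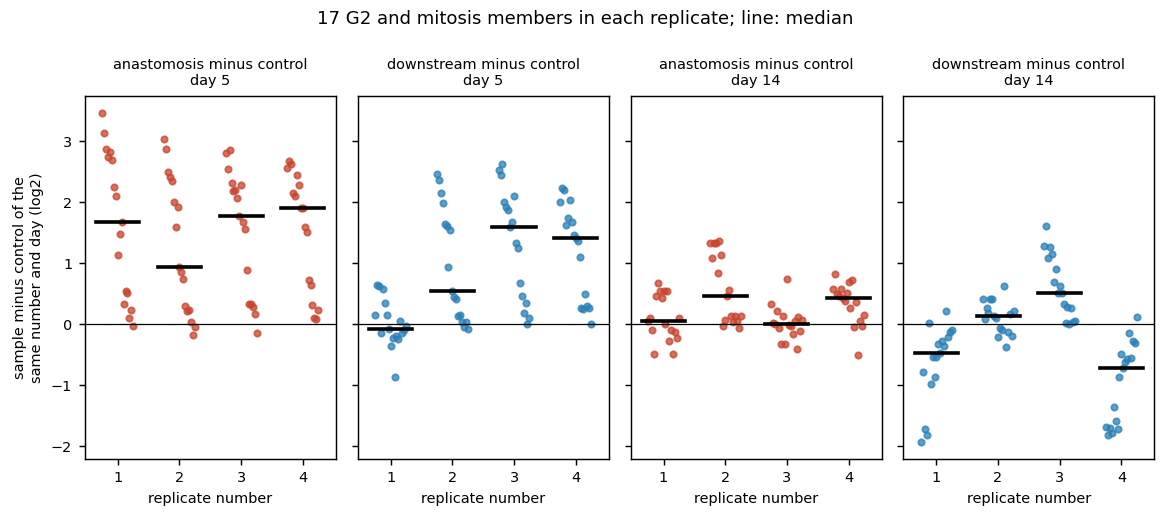
Log2 difference of each of the 17 G2 and mitosis members between a graft sample and the control of the same replicate number and day, by replicate number; the black line is the median of the 17. Medians at the anastomosis on day 5 run from 0.94 to 1.90, whereas downstream on day 5 replicate 1 has a median of -0.08 and replicates 3 and 4 have 1.59 and 1.42; on day 14 the medians lie between -0.72 and 0.52.

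Between the graft sites themselves, both labelled with the same dye, no member passed on either day, and nor did any feature (0 of 33724 in limma, 0%). At an unadjusted p under 0.05 there were 13 of 50 members and 3386 features on day 5, and 4 members and 4782 features on day 14. On day 5, 37 members and all G2 and mitosis members but CCNA1 (0.00) had a higher mean at the anastomosis, the largest differences being KIF26B (1.32, SE 0.49), CDC20 (1.18, SE 0.54) and CDCA7 (1.14, SE 0.46). By pair, the G2 and mitosis median was 2.10 in replicate 1 and 0.21 to 0.42 in the others. AURKA alone of the members did not overlap, its lowest anastomosis sample (11.10) lying above its highest downstream sample (11.05). Of all features 1.26% lay wholly above and 0.81% wholly below, so 1 of 50 is near that share.

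On day 14 few members passed against the control, at a share near that of all features. At the anastomosis 1 member rose and 3 fell, where 8.76% of all features passed (4.72% higher and 4.04% lower) and, of features with a symbol, 6.92% higher and 5.18% lower. That is 8% of the members, so this count is near the background. KIF26B read 7.75, 7.27, 6.68 and 7.20 in the controls, 9.61, 10.24, 9.59 and 9.68 at the anastomosis and 7.72, 7.75, 7.85 and 8.19 downstream. All anastomosis samples lay above all controls, at levels like those of day 5, and KIF26B rose by 2.55 (SE 0.49, adjusted p = 0.00812). CDKN3 read 12.13, 11.77, 11.13 and 11.89 in the controls, 11.43, 10.52, 10.46 and 11.16 at the anastomosis and 10.93, 11.12, 11.20 and 11.11 downstream. It fell by 0.84 (SE 0.21, adjusted p = 0.0247) with overlap. CDK9 and CDKAL1 fell by 0.33 and 0.40, also with overlap, and with median centring they were at 0.45 and 0.06, the first past the test as higher. The 4 calls were 2 without replicate 1, 5 without replicate 2, 2 without replicate 3 and 0 without replicate 4. They were 0 in replicates 1 and 2 alone and 1, KIF26B, without the replicate block. KIF26B itself did not pass without replicate 3 (2.44) or replicate 4 (2.58), though its difference hardly moved. In this comparison 2 of 4 macrophage markers (list median 1.31) and 1 of 5 endothelial markers (0.30) rose and the neutrophil marker CXCR2 fell by 2.15, and 0 of 5 smooth muscle markers passed (-0.90). Their part was not tested.

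In G2 and mitosis 0 of 17 members passed at the anastomosis on day 14 (median 0.38, 14 above 0, 1 at an unadjusted p under 0.05), and none in replication or G1 and S entry. CDC20 read 11.86, 8.71, 8.36 and 9.84 in the controls, 11.91, 10.05, 8.70 and 10.43 at the anastomosis and 9.93, 9.13, 9.65 and 8.16 downstream. Control replicate 1 was above 3 of the 4 anastomosis samples, and the difference was 0.58 (SE 0.54, adjusted p = 0.569). BUB1 read 10.16, 8.37, 8.69 and 9.82 in the controls, 10.26, 9.46, 8.71 and 10.65 at the anastomosis and 9.38, 8.45, 10.29 and 8.02 downstream. Its control and anastomosis samples overlapped in part, at 0.51 (SE 0.51, adjusted p = 0.595). PLK2, which is induced by stress and growth signals, had the next largest difference after KIF26B, at 1.36 (SE 0.44, adjusted p = 0.0677), with 9.26, 10.97, 9.77 and 9.26 in the controls and 12.25, 10.57, 10.96 and 10.94 at the anastomosis. CDC42BPA, a kinase of the actin cytoskeleton, followed at 0.93 (SE 0.34, adjusted p = 0.105).

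The day 14 controls spread widely, and so did the anastomosis samples of that day. Control replicate 1 was the highest of its group for 10 of the 17 G2 and mitosis members and control replicate 4 for 7. MCM3 read 9.42, 7.36, 6.98 and 7.27 and CENPM 10.03, 8.04, 7.91 and 9.05 in these controls, replicate 1 being the highest for both. Control replicate 1 and anastomosis replicate 1 of day 14 were on 1 array and read 11.86 and 11.91 for CDC20, 10.16 and 10.26 for BUB1 and 9.42 and 9.29 for MCM3. The SD of CDC20 on day 14 was 1.58 in the controls, 1.32 at the anastomosis and 0.78 downstream. On day 5 it was 0.46, 0.77 and 0.94 in the same order. Anastomosis replicate 3 of day 14 was the lowest of its group for 13 of the 17 G2 and mitosis members, and downstream replicate 4 for 11.

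Downstream on day 14, 0 of 50 members passed in limma, where 0.851% of all features did (0.596% higher and 0.255% lower). Of features with a symbol, 1.02% were higher and 0.374% lower, so 0 of 50 is near the background. At an unadjusted p under 0.05 there were 6 members, and 15% of all features. The G2 and mitosis median was -0.15, with 2 of 17 members above 0. CDC20 was at -0.48 (SE 0.54, adjusted p = 0.738), CCNA2 at 0.06 and CENPF at -0.51. In CENPF 1 downstream sample, replicate 3, read 9.75 and the others 8.03 to 8.19. The largest member difference was that of PLK2 (1.40, SE 0.44, adjusted p = 0.146), followed by KIF26B (0.65), CCND2 (-0.64) and CDKN3 (-0.64, adjusted p = 0.162). The second CDKN3 probe was at -0.94, with an adjusted p of 0.0477 in the test of single probes. With each channel centred on its median, 6 members passed, 5 of them higher (CDK2AP1, CDK4, CDK9, PLK1S1 and PLK2) and KIF18A lower. The share of all features that passed with this scaling is not given here, so the 6 are not set against a background.

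Day 14 was also compared with day 5 at each site. In replicates 1 to 3 the days were on different slides, and in replicates 1 and 2 they also had different scan dates. There the day and the slide cannot be told apart. Only replicate 4 had both days on 1 slide. At the anastomosis 0 of 50 members passed, where 2 features did (0.00593%), although 22 members had an unadjusted p under 0.05, as did 8.32% of all features. Of the 17 G2 and mitosis members 16 were lower on day 14 than on day 5, with a median of -1.08. AURKA was at -1.64 (SE 0.38, adjusted p = 0.306), CENPF at -1.52 (SE 0.35, adjusted p = 0.306), BUB1 at -1.70 and CDCA7 at -1.80, while KIF26B was at 0.00. AURKA, CENPF, BUB1 and CDCA7 were lower on day 14 in all 4 pairs of the same number, AURKA by 1.15 to 2.15, though the labels do not tie the numbers across days. With the replicate number as a block, 0 of 50 members and 8 features passed. Downstream 0 members and 0 features passed, with a G2 and mitosis median of -0.96 and 8 members at an unadjusted p under 0.05, where 4.47% of all features were. In the controls the median was 0.13, 0 members and 0 features passed, and 2 members had an unadjusted p under 0.05, where 1.91% of all features did. CDKN1B in the controls was at -0.89 (SE 0.37, adjusted p = 1.00), with 13.70, 13.90, 12.41 and 12.73 on day 5 and 11.69, 12.36, 12.50 and 12.64 on day 14. The largest gaps were in replicates 1 and 2, and replicate 3 was not higher on day 5.

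The change of the anastomosis-control difference between the days had a G2 and mitosis median of -1.22, the difference being smaller on day 14 for 16 of 17 members. No member and no feature passed in limma (0%), and 21 members had an unadjusted p under 0.05, as did 8.35% of all features. CDC20 changed by -2.39 (SE 0.77, adjusted p = 0.438), AURKA by -1.78 (SE 0.49, adjusted p = 0.404) and KIF26B by -0.01 (SE 0.70). With the downstream samples left out of the fit, AURKA, BUB1, CCNA2, CDC20 and CENPF passed, with adjusted p of 0.0272 to 0.0395 and the same estimates. The share of all features that passed in that fit is not given here. For the downstream-control difference the median was -1.08, 0 members and 0 features passed, and 15 members had an unadjusted p under 0.05, as did 7.52% of all features. CENPF was at -2.41 (SE 0.66, adjusted p = 0.657) and BUB1 at -2.15.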

How the data were processed

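Members and gene lists were chosen with earlier results of these data known. RNA was isolated by a Qiagen RNeasy Micro kit and given 2-colour Quick Amp labels, per the labels' protocols. Per the file headers, Feature Extraction 10.5.1.1 (Agilent) made the scanner values: deposited intensity values on a linear scale, not yet normalised. They came from 16 arrays on 7 slides, with 5 scan dates. Control and anastomosis of a number and day shared an array. The authors also deposited a table of log2 values; how it was made is not stated in those sources, and it was used as an alternative for replicates 1 to 3.

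Intensities were corrected with normexp (offset 50), normalised by loess and Aquantile, and tested on the log2 scale with lmFit and eBayes (limma 3.58.1, R 4.3.3), over features whose spot was well above background in 4 or more samples; 51 features with a spot marked as an outlier were left out. Site comparisons used all 24 samples with a block for each number and day (8 blocks of 3). Day comparisons took a site's 8 samples, without a block. P-values are two-sided and adjusted over all features, with 0.05 as threshold. The block follows the arrays: deviations from group means correlated at 0.225 to 0.816 in 8 pairs of samples on 1 array and at 0.193 to 0.758 in 16 pairs of the same number and day on different arrays, all over 0.1. Samples sharing site and number but not day correlated at 0.0745 to 0.624 (11 of 12 over 0.1).

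Named genes were those of a roster of division genes, the up to 3 largest calls per family, direction and comparison, and the 3 largest differences overall; others were named to account for members or chosen after their values were seen. Alternatives were the signal processing, scaling, filter, probe choice, block, slide, samples fitted, and leaving out replicates. The steps were checked on simulated data. Array intensities carry no counts, so the number of arrays limits the precision.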

Additional observations from a re-analysis of the deposited data

Results flagged for a closer look

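In groups of 4 samples, a sample far from the other 3 was found in 12 of 300 combinations of member and group (4%), and chance alone marks about 1 in 20. Replicate 1 of the downstream group of day 5 was far below the others for AURKA (9.90, others 10.99 to 11.05) and far above them for KIF21A (8.32, others 6.54 to 6.61), a kinesin of neuronal transport. Replicate 2 of that group was low for the transport kinesin KIF5B (11.61, others 12.37 to 12.42).

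Among the controls of day 14, replicate 1 was high for MCM3 (9.42, others 6.98 to 7.36) and for CDC16 (12.17, others 11.17 to 11.33), and replicate 2 was low for CCND2 (12.88, others 13.92 to 14.03). Downstream on day 14, replicate 1 was high for CDK6 (12.80, others 12.20 to 12.29), CDK9 (14.61, others 14.30 to 14.35) and KIF3A (7.86, others 6.90 to 7.01), and replicate 3 was high for CENPF (9.75, others 8.03 to 8.19). At the anastomosis on day 14, KIF26B was high in replicate 2 (10.24, others 9.59 to 9.68) and KIF24 in replicate 4 (6.88, others 6.24 to 6.33).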

How the results depend on the processing

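Of the 25 calls at the anastomosis on day 5, 13 kept direction and threshold under all 15 alternatives other than splitting the replicates: AURKA, BUB1, CCNA2, CDC20, CDC25C, CDC45, CDCA3, CDCA7, CDK2AP1, CENPF, KIF11, KIF18B and KIF2C. The count was 15 to 21 with a replicate number left out, 0 in replicates 1 and 2 alone, 12 in replicates 3 and 4 alone and 16 with no replicate block. Downstream on day 5 the 9 calls became 15 with no background correction, 22 with median centring, 1 in the deposited table, 5 with the mean of the probes of a symbol, 0 to 17 with a number left out, 0 in replicates 1 and 2 alone, 4 in replicates 3 and 4 alone and 0 with no replicate block. At the anastomosis on day 14 the 4 calls became 2 with the Feature Extraction processed signals, 16 with median centring (15 higher), 1 in the deposited table, 0 to 5 with a number left out, 0 in replicates 1 and 2 alone, 1 with no replicate block and 0 with the samples compared alone. Downstream on day 14 the 0 calls became 6 with median centring and 1 (CDC40) in replicates 3 and 4 alone. The 0 calls became 5 for the day change of the anastomosis difference with the samples compared alone, and 1 (KIF20A) for the anastomosis between days in the deposited table. The block changed no other count of calls. The share of all features past the test under each alternative is not given here, so these counts are not set against a background. Directions turned with median centring for CCND2 (0.10), CDK9 (0.63) and CDKAL1 (0.10) at the anastomosis on day 5 and for CDK9 (0.45) and CDKAL1 (0.06) on day 14, and CCND2 turned with the mean of its probes (0.00). Median centring moved the share of calls that were higher, over all features, from 46.9% to 57.6% at the anastomosis and from 38.8% to 56.8% downstream on day 5, and from 70% to 42.9% downstream on day 14. The deposited table moved it from 53.9% to 66.4% at the anastomosis on day 14. The cause was not tested. The slide as a random block could not be fitted for the day comparisons. Signal over background limits KIF11, KIF20A, PLK1, CDC25C, KIF18A, KIF24, CCNA1 and PLK3, which were not well above background in all controls.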

Other observations

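Family genes whose symbols came from gene tables rather than from the array's own names were outside the selection. Of 21 such genes measured, 6 rose and 2 fell at the anastomosis on day 5. That is 38.1%, where 19.4% of all features and 29.7% of features with a symbol passed. Those that rose were KIF23, a kinesin of cell separation (2.47, SE 0.39, adjusted p = 0.00108), the origin subunit ORC1 (2.31), the centromeric histone CENPA (1.74), the polymerase subunit POLE2 (1.42), the inner centromere protein CENPT (0.93) and CDK2 (0.55). The genes that fell were CDC42EP3, a CDC42 effector (-1.52), and CDKL1 (-1.12). Not past the test in this comparison were the CDK inhibitors CDKN2C (-0.52) and CDKN2D (-0.03), the replication factors ORC4 (-0.37) and POLE3 (0.01) and the anaphase-promoting complex subunit CDC23.

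Downstream on day 5, KIF23 (1.60) and CENPA (0.99) rose and CDC42EP3 (-1.71) fell. That is 14.3%, against 8.13% of all features and 11.8% of features with a symbol, so this count is near the background. At the anastomosis on day 14 none of the 21 rose, and CDKN2C (-1.25, SE 0.30, adjusted p = 0.0226) and CDC37L1 (-0.73) fell. That is 9.52%, against 8.76% of all features and 12.1% of features with a symbol, so this count too is near the background. Downstream on day 14, 0 of the 21 passed in limma (0.851% of all features did) and 2 had an unadjusted p under 0.05.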
